A study of Homo sapiens with 6 samples.

Results

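Serine supplies the canonical sphingoid bases and the head group of phosphatidylserine, and 38 genes of these pathways were followed in the human glioblastoma line U87MG after 24 h with or without serine and glycine. The genes were chosen by name, all 38 were found among the 25737 rows of the deposited count table, and 33 had enough counts to be tested. Deprived libraries came from DMEM medium that lacked serine and glycine, and complete libraries from an equivalent medium with both amino acids. Each medium had 3 libraries, numbered by their labels, and the labels name no other genotype, agent or line. U87MG was maintained in DMEM with 10% fetal bovine serum before the experiment, and nothing in the labels ties libraries of a medium to separate cultures. Each p-value therefore reflects the spread among these libraries, which may be technical. The 3′ ends of transcripts were sequenced from 500 ng of RNA per library. In bulk RNA of this kind, fewer cells of a type and less RNA per cell cannot be told apart.

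Sphingolipid synthesis begins when serine palmitoyltransferase joins serine to a fatty acyl chain. Reduction, attachment of a further acyl chain and desaturation then give ceramide, which cells turn into sphingomyelin, glycosphingolipids or ceramide phosphate, or break down to sphingosine and its phosphate. Phosphatidylserine is made by exchange of serine for the head group of another phospholipid, and its decarboxylation in mitochondria is a main source of phosphatidylethanolamine. When serine is scarce the palmitoyltransferase can use alanine in its place, which yields deoxysphingolipids that cannot be degraded in the usual way. RNA levels do not measure any of these fluxes.

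Counts totalled 6249706 to 7247995 per library, and 3 counts, the upper limit that a count of 0 allows, corresponded to 0.415 to 0.477 CPM, a limit that covers counting error only. Levels are given as CPM, counts brought to a common library size with edgeR's TMM factors, and were not divided by transcript length. For genes of serine synthesis and its control, the libraries did not group by label. PHGDH, which opens serine synthesis, stood at 201, 64.3 and 212 CPM in deprived 1, 2 and 3 and 193, 59.3 and 58.9 CPM in complete 1, 2 and 3. ATF4, the transcription factor of the amino acid response, stood at 408, 161 and 476 CPM in the deprived libraries and 413, 174 and 154 CPM in the complete libraries, again with high values in deprived 1, deprived 3 and complete 1. Whether each library had the medium that its label gives was not tested, and the labels are used as they stand. The line's mesenchymal genes VIM, CD44, TNC and SPARC were abundant, from 142 CPM for TNC to 6901 CPM for VIM, and each had its 3 lowest values in those same libraries. Of the glial markers, OLIG2 was present at a low level of 1.52 to 6.84 CPM, whereas GFAP had 15 counts, SOX2 1 and S100B 0 over all libraries. The growth notes call the line epithelial; of the epithelial genes, EPCAM had 40 counts and lay at 0.709 to 1.66 CPM, KRT14 had 1 count, and CDH1 and KRT5 had 0. Of the leukocyte genes, PTPRC had 11 counts, ITGAM 5, and CD3D and CD3E 0.

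By label, no gene of the pathway passed the threshold, and the members differed between libraries by a smaller median ratio than all genes did. Of 33 members tested, 0 had a Benjamini-Hochberg adjusted p under 0.05 in edgeR's quasi-likelihood test, and over all 13068 genes tested the share called was 0%. DESeq2 and limma-voom also called 0 members and 0 genes. At an unadjusted p under 0.05, 0 members stood out in edgeR, DESeq2 or limma-voom, against 1.89%, 0.719% and 1.92% of all genes in these tests. The log2 fold change of deprived against complete medium was above 0 in 21 members and below 0 in 12, where 51% of all genes lay above 0. Its median was 0.063 over the members and 0.0033 over all genes, and the members ranged from -0.11 for CERS2 to 0.26 for CHKA. The median standard error of a member was 0.13, against 0.16 over all genes, and the edgeR adjusted p was 0.999 for all 33 members. The highest library exceeded the lowest by a median ratio of 1.29 in the members and 1.41 in all genes. This ratio takes no account of how many counts a gene has. The index described below, which sets the spread against counting error, had a median of 2.80 in the members and 2.79 in all genes. It grows with a gene's count, so these medians do not show that the relative spread was alike.

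The 3 deprived and 3 complete libraries did not overlap in 1 member, SPTLC1, where 6.97% of all genes did not overlap, 3.48% with deprived higher and 3.49% with deprived lower. By contrast, deprived 1, deprived 3 and complete 1 held the 3 highest or the 3 lowest values in 15 of 33 members, or 45.5%, against 36% of all genes. These libraries were singled out by their values, so the count is a description and compares no media. They held the 3 highest values of 9 members, against 18.3% of all genes, and the 3 lowest of 6, against 17.7%. The 9 were SPTLC2, KDSR, CERS5, UGCG, SGPL1, PCYT2, CHKA, SERINC1 and SERINC3. The 6 were CERS2, CERS6, DEGS1, CERK, ACER3 and PTDSS1. All 5 tested genes of ceramide synthesis were among these 15, as was 1 of the 7 tested genes of the palmitoyltransferase and its regulators, or 14.3%. Over all genes the share was 36%. Both lists are short, and a difference between them was not tested.

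**Figure D1:**
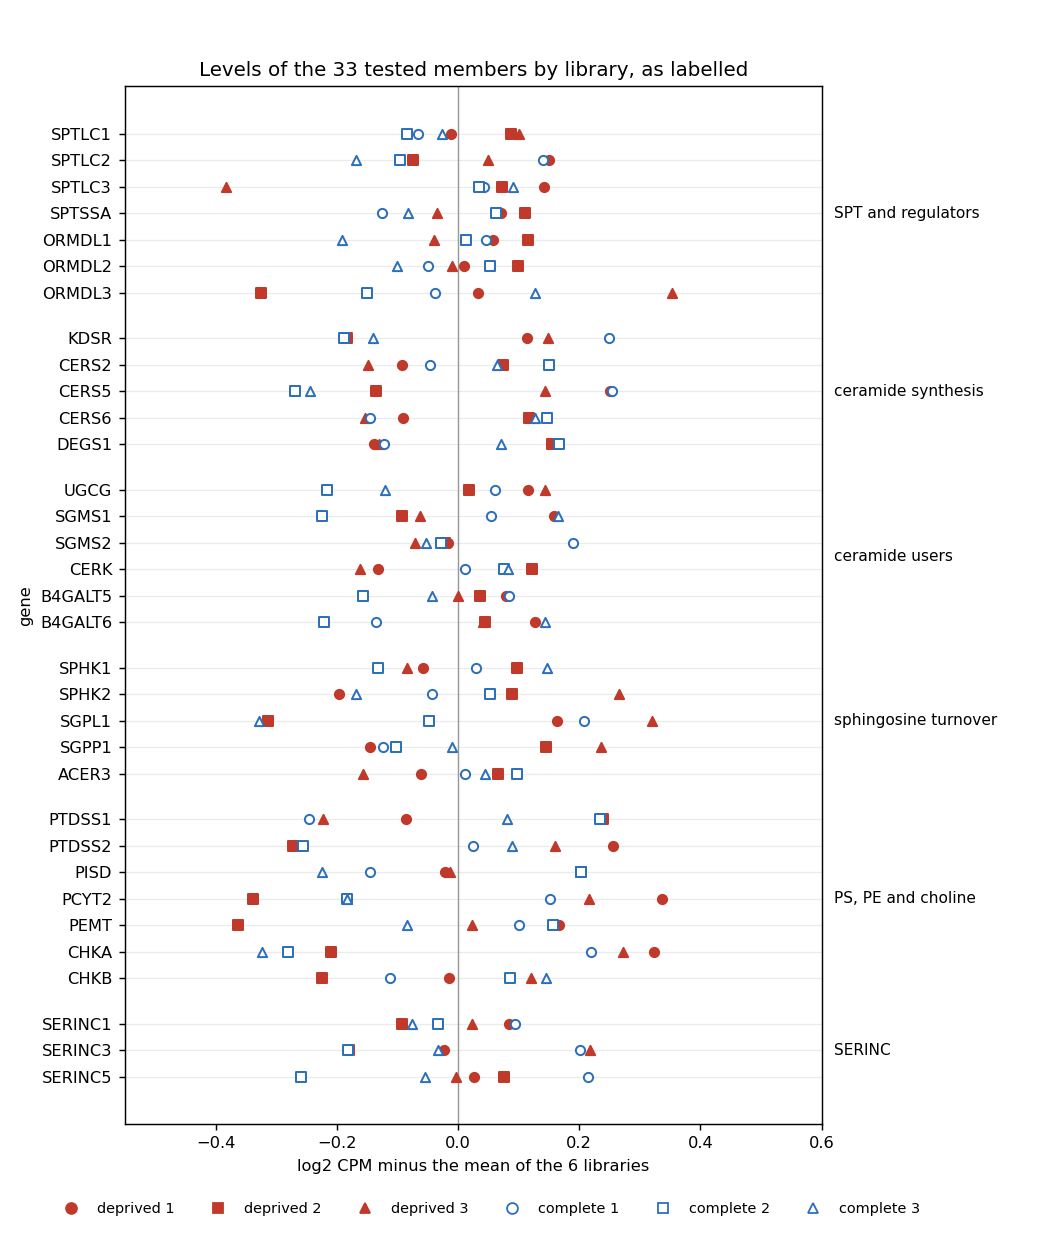
Each row is a tested member and each point a library, placed at its log2 CPM minus the mean of that member over the 6 libraries; filled red points are deprived and open blue points complete libraries, with circle, square and triangle for replicate 1, 2 and 3. In KDSR, CERS5 and CHKA the points of deprived 1, deprived 3 and complete 1 lie to the right of the others, and in CERS2, CERS6, DEGS1 and PTDSS1 to the left, whereas SPTLC1 is the member in which red and blue separate.

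Sequences at the gene start are shown for KDSR and DEGS1, enzymes of ceramide synthesis that took opposite orders over the libraries, and for SERINC3 and PCYT1A, which hold the only matches, among the members and the tested pathway genes, to an element known from genes of the amino acid response. Each window is from RefSeq on GRCh38.p14 and runs from 250 bases before to 50 bases after a gene start, read 5′ to 3′ on the gene's strand; the build used for the counts is not given in the sources used here. The windows are chr18:63367157-63367456 on the minus strand for KDSR, chr1:224182990-224183289 on the plus strand for DEGS1, chr20:44522021-44522320 on the minus strand for SERINC3 and chr3:196287677-196287976 on the minus strand for PCYT1A. Capitals mark matches to TGATGNAA on either strand, a composite element that C/EBP and ATF factors can bind.
KDSR: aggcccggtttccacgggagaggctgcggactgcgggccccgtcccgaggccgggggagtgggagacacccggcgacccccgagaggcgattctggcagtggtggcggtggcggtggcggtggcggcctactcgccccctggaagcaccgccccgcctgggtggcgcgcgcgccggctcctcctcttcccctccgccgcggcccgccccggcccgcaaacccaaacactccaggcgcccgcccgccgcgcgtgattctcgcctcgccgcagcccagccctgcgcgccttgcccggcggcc
DEGS1: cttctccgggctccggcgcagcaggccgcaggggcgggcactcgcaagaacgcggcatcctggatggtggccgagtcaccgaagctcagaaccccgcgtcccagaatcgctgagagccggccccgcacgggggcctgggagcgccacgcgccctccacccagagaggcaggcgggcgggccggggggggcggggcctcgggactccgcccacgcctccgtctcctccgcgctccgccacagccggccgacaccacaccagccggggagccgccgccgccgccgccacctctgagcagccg
SERINC3: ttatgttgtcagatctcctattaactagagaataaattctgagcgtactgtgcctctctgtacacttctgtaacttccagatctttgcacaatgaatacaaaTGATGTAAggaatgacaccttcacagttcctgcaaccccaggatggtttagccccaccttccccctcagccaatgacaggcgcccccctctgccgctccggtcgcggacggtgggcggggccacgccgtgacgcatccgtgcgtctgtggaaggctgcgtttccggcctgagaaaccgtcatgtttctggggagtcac
PCYT1A: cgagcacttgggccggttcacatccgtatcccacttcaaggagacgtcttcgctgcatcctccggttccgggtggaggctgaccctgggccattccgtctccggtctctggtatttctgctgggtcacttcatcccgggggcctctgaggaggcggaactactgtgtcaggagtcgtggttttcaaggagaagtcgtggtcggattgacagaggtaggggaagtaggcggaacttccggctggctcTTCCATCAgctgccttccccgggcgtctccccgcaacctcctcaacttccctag

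A window was listed for 30 of the 38 members, 48 windows in all because some genes have several starts. TGATGNAA occurred in 1 of the 48, that of SERINC3, or 2.08%, and in 3.62% of 35116 windows of all genes. Of PHGDH, PSAT1, PSPH, ATF4 and ASNS, genes of serine synthesis and the amino acid response, 4 had a window. Only 1 of these, ASNS, held a match. PCYT1A, a pathway gene that is no member, held its match on the opposite strand. CACGTG, the E-box, occurred in 2 member windows, those of PTDSS2 and PEMT, or 4.17%, and in 7.26% of all windows; no motif overlapped another in the windows shown. A match describes letters only and shows no binding.

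Serine palmitoyltransferase showed small differences between libraries. SPTLC1, the subunit that every form of the enzyme contains, stood at 94.2, 101 and 102 CPM in deprived 1, 2 and 3 and 90.7, 89.6 and 93.2 CPM in complete 1, 2 and 3. All deprived values lay above all complete values, by little: the means were 98.9 ± 4.15 CPM for deprived and 91.2 ± 1.89 CPM for complete libraries (SD, n = 3 each), and the log2 fold change was 0.12 ± 0.081 (SE). SPTLC2, a catalytic partner, stood at 110.3, 94.5 and 103 CPM in the deprived libraries and 109.6, 93.02 and 88.5 CPM in the complete libraries, so that deprived 2 lay with complete 2 and complete 3. SPTLC3, the alternative catalytic partner, which broadens the choice of acyl chain, stood at 29.3, 27.9 and 20.4 CPM in the deprived libraries and 27.4, 27.2 and 28.3 CPM in the complete libraries. Only deprived 3 departed from the rest, and it was low. Of the counts of both, SPTLC3 held 20.1 ± 3.24% (SD, n = 3) in deprived and 22.3 ± 2.15% (SD, n = 3) in complete medium. Its share was lowest in deprived 3, at 16.5% (14.1% to 19.2%), and highest in complete 3, at 24.2% (21.3% to 27.4%), with exact binomial 95% intervals that cover counting error only. SPTSSA, a small subunit that activates the enzyme, ranged over 34.8 to 41.00 CPM with the labels overlapping. Its paralog SPTSSB had 1, 0, 1, 0, 0 and 3 counts in deprived 1 to 3 and complete 1 to 3, at or below the limit for a zero.

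The ORMDL proteins hold the palmitoyltransferase in check when ceramide is plentiful. ORMDL1 and ORMDL2 varied little, over 64.04 to 79.3 CPM and 42.4 to 48.7 CPM. ORMDL3 stood at 22.9, 17.9 and 28.6 CPM in deprived 1, 2 and 3 and 21.8, 20.2 and 24.5 CPM in complete 1, 2 and 3, which made it the member with the widest range beside PCYT2, the highest library exceeding the lowest by a ratio of 1.599. Both its highest value, in deprived 3, and its lowest, in deprived 2, came from the deprived label. By label the means were 23.1 ± 5.36 CPM for deprived and 22.1 ± 2.16 CPM for complete libraries (SD, n = 3 each), with a log2 fold change of 0.063 ± 0.18 (SE). Its sign turned to -0.12 without deprived 3 and to -0.0033 without complete 2. ORMDL3 did not follow the order of PHGDH, since complete 3 lay above deprived 1 and complete 1. It held 12.3% of the ORMDL counts in deprived 2 and 19.7% in deprived 3, while ORMDL1 held 52.02 ± 2.67% (SD, n = 3) in deprived and 51.6 ± 2.37% (SD, n = 3) in complete medium.

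Among the enzymes that complete ceramide, some were high and others low in the same libraries. KDSR, which reduces the first sphingoid product, stood at 176, 143 and 180.0 CPM in deprived 1, 2 and 3 and 193, 142 and 147 CPM in complete 1, 2 and 3. Deprived 1, deprived 3 and complete 1 were high and the other libraries low, and the labels overlapped. CERS5, a ceramide synthase that prefers long acyl chains, was high in the same libraries at 23.2, 17.7 and 21.5 CPM in the deprived libraries and 23.2, 16.2 and 16.5 CPM in the complete libraries. CERS2, the synthase for very long chains, took the opposite order at 159, 178 and 153 CPM in the deprived libraries and 164, 188 and 177 CPM in the complete libraries. Its label means were 163 ± 13.3 CPM for deprived and 176 ± 11.9 CPM for complete libraries (SD, n = 3 each), with a log2 fold change of -0.11 ± 0.10 (SE). It was -0.065 without deprived 3 or without complete 2 and -0.18 without deprived 2. CERS6, another long-chain synthase, stood at 76.99, 88.95 and 73.7 CPM in the deprived libraries and 74.1, 90.8 and 89.5 CPM in the complete libraries, low where CERS5 was high. DEGS1, the desaturase that introduces the double bond of ceramide, stood at 83.3, 102 and 83.8 CPM in the deprived libraries and 84.3, 103 and 96.4 CPM in the complete libraries, also low in deprived 1, deprived 3 and complete 1, the reverse of KDSR. Neither start printed above holds a match to TGATGNAA. CERS1 and CERS4 had 0 counts in every library, which allows up to 0.477 CPM in the shallowest. CERS1 shares a transcript with GDF1, so that counting by gene name may assign its reads elsewhere.

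The counts of ceramide synthases were divided among CERS2, CERS6 and CERS5. CERS2 held 61.8 ± 0.643% (SD, n = 3) in deprived and 63.03 ± 0.614% (SD, n = 3) in complete medium, and CERS6 held 30.2 ± 0.864% (SD, n = 3) in deprived and 30.2 ± 1.696% (SD, n = 3) in complete medium. CERS5 took 8.95% (7.67% to 10.4%) of them in deprived 1, 8.67% (7.395% to 10.1%) in deprived 3 and 8.88% (7.55% to 10.4%) in complete 1. In deprived 2, complete 2 and complete 3 it took 6.22% (5.21% to 7.37%), 5.48% (4.56% to 6.53%) and 5.81% (4.802% to 6.95%). These exact intervals cover counting error only, and those of deprived 3 and deprived 2 nearly met. Averaged by label, the share was 7.95 ± 1.499% (SD, n = 3) in deprived and 6.72 ± 1.87% (SD, n = 3) in complete medium, a difference smaller than the SD.

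**Figure D2:**
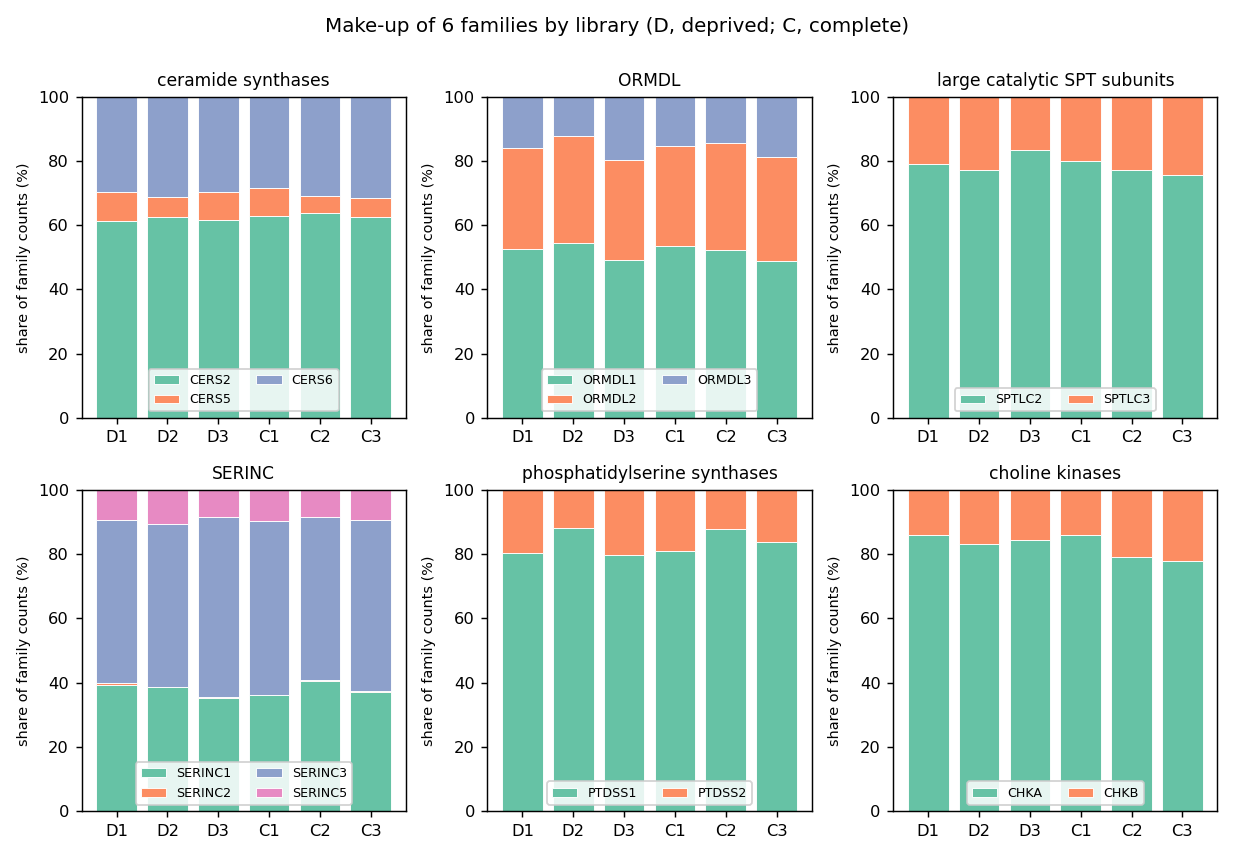
Stacked bars give, for each library, the percentage of a family's counts that each member holds, with D for deprived and C for complete libraries; CERS1 and CERS4, at 0, are not drawn, and the phosphatidylserine synthase and choline kinase panels were added after their values were seen. CERS2 holds over 60% of the ceramide synthase counts in every library, and the PTDSS2 share is smallest in D2 and C2.

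The genes that consume ceramide differed in their order. UGCG, which attaches glucose to ceramide and so opens glycosphingolipid synthesis, stood at 176, 165 and 179.6 CPM in deprived 1, 2 and 3 and 169.6, 139.9 and 149 CPM in complete 1, 2 and 3. It had the smallest unadjusted p of the members, 0.0927 in edgeR's test, and the means were 173 ± 7.83 CPM for deprived and 153 ± 15.2 CPM for complete libraries (SD, n = 3 each). Complete 1 lay within the deprived range, and the log2 fold change was 0.18 ± 0.10 (SE), and 0.12 without complete 2. The next enzymes of that route, the galactosyltransferases B4GALT5 and B4GALT6, ranged over 85.6 to 101 CPM and 19.3 to 24.9 CPM with overlapping labels. CERK, the kinase that makes ceramide phosphate, stood at 45.2, 53.9 and 44.3 CPM in the deprived libraries and 49.95, 52.2 and 52.5 CPM in the complete libraries. Deprived 2 was the highest and the other deprived libraries were the lowest. The CERK means were 47.8 ± 5.31 CPM for deprived and 51.6 ± 1.39 CPM for complete libraries (SD, n = 3 each), with a log2 fold change of -0.11 ± 0.11 (SE). Without deprived 1, 2 or 3 it was -0.073, -0.21 or -0.057. SGMS1 and SGMS2, the sphingomyelin synthases of the Golgi and the cell surface, ranged over 43.1 to 56.5 CPM and 25.9 to 31.02 CPM, and the highest value was in complete 3 for SGMS1 and in complete 1 for SGMS2.

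In the turnover of sphingosine, the lyase differed most between libraries. SGPL1 cleaves sphingosine phosphate irreversibly and yields a precursor of phosphatidylethanolamine. It stood at 33.8, 24.3 and 37.6 CPM in deprived 1, 2 and 3. In complete 1, 2 and 3 it stood at 34.8, 29.2 and 24.01 CPM. Deprived 2 and complete 3 were nearly equal at the bottom, and the highest values lay in deprived 3 and complete 1. Its means were 31.9 ± 6.88 CPM for deprived and 29.3 ± 5.41 CPM for complete libraries (SD, n = 3 each), and its log2 fold change of 0.12 ± 0.19 (SE) turned to -0.014 without deprived 3 and to -0.0036 without complete 3. SGPP1, the phosphatase that returns sphingosine phosphate to sphingosine, stood at 42.8, 52.4 and 55.8 CPM in the deprived libraries and 43.4, 44.1 and 46.99 CPM in the complete libraries. Deprived 2 and deprived 3 lay above every complete library, and deprived 1 below them. The SGPP1 means were 50.3 ± 6.72 CPM for deprived and 44.8 ± 1.89 CPM for complete libraries (SD, n = 3 each), with a log2 fold change of 0.17 ± 0.12 (SE). It was 0.27 without deprived 1 and 0.086 without deprived 3. The sphingosine kinases SPHK1 and SPHK2 ranged over 39.7 to 48.2 CPM and 8.73 to 12.03 CPM, without a library standing apart. ACER3, a ceramidase of the Golgi and endoplasmic reticulum, ranged over 17.3 to 20.6 CPM, which is within what counting error gives. ACER2, a ceramidase of the Golgi, had 0, 1 and 1 counts in the deprived and 6, 1 and 0 counts in the complete libraries.

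**Figure D3:**
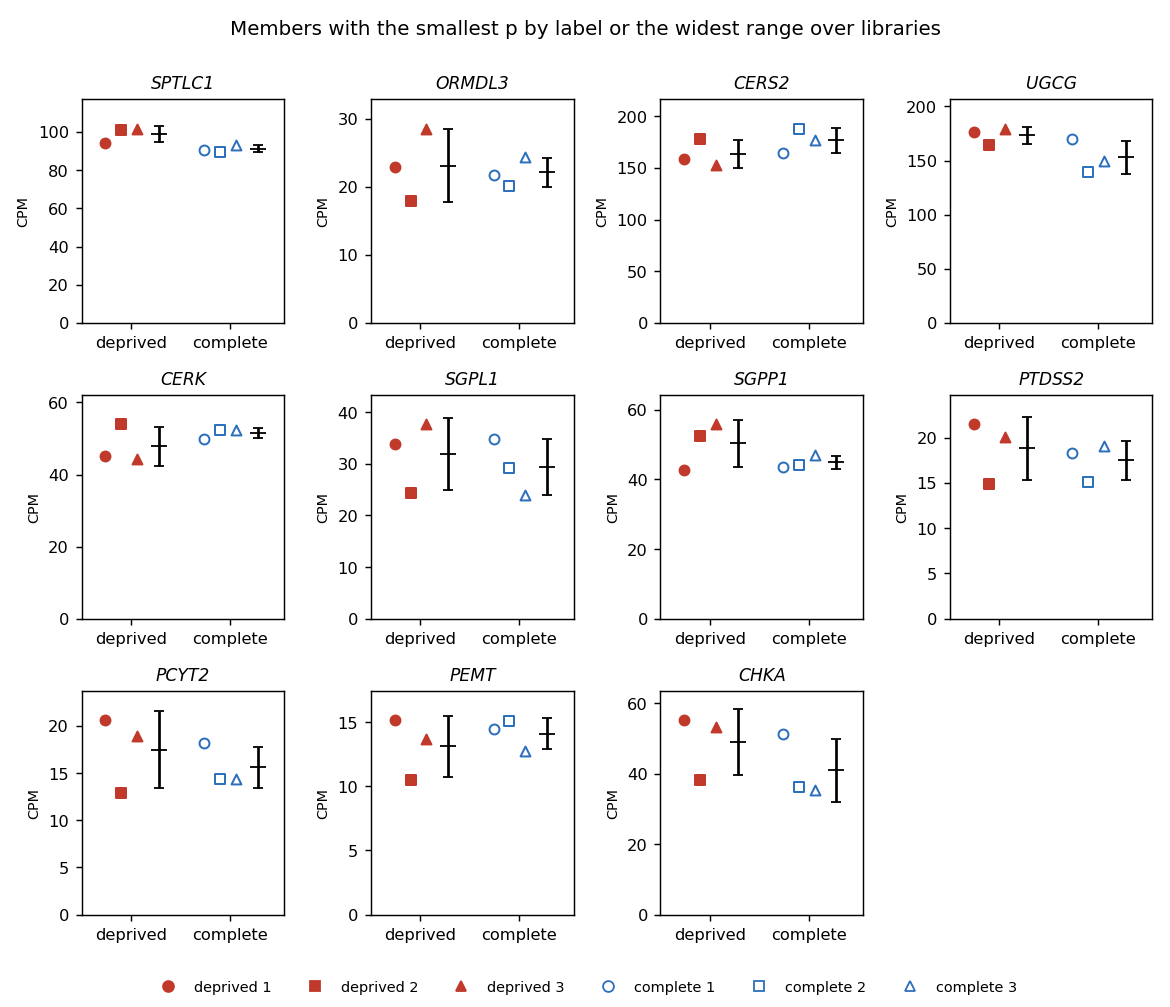
CPM of the 11 members with the smallest p by label or the widest range over libraries, with symbols for the libraries as labelled below the panels and black bars for the mean and SD of each label (n = 3); axes start at 0. CHKA, PCYT2 and PTDSS2 show deprived 2 below the other deprived libraries, and CHKA and PCYT2 show complete 1 above the other complete libraries.

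Phosphatidylserine synthesis held a contrast between its synthases. PTDSS1, which exchanges serine for the choline of phosphatidylcholine, stood at 87.3, 109 and 79.4 CPM in deprived 1, 2 and 3 and 78.1, 109 and 97.99 CPM in complete 1, 2 and 3, with deprived 1, deprived 3 and complete 1 low. PTDSS2, which exchanges serine for the ethanolamine of phosphatidylethanolamine, stood at 21.5, 14.9 and 20.1 CPM in the deprived libraries and 18.3, 15.1 and 19.1 CPM in the complete libraries. Deprived 2 and complete 2, where PTDSS1 was highest, were lowest for PTDSS2. The PTDSS2 means were 18.8 ± 3.46 CPM for deprived and 17.5 ± 2.14 CPM for complete libraries (SD, n = 3 each), with a log2 fold change of 0.11 ± 0.18 (SE), which turned to -0.00091 without deprived 1. Of the counts of both synthases, PTDSS2 took 11.99% (9.91% to 14.3%) in deprived 2 and 12.2% (10.1% to 14.5%) in complete 2. Its share was 19.7% (16.96% to 22.7%) in deprived 1 and 20.2% (17.3% to 23.4%) in deprived 3. In complete 1 it was 18.98% (15.9% to 22.3%) and in complete 3 16.3% (13.8% to 19.1%). The interval of complete 3 overlapped that of every other library, and these shares were added after their values were seen. PISD, the mitochondrial decarboxylase that turns phosphatidylserine into phosphatidylethanolamine, stood at 32.1, 37.5 and 32.3 CPM in the deprived libraries and 29.4, 37.5 and 27.9 CPM in the complete libraries. Deprived 2 and complete 2 were its highest libraries, as they were for PTDSS1.

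CHKA had the largest log2 fold change of the members by label and was also among those that differed most within a label. CHKA, a kinase that phosphorylates choline and ethanolamine, stood at 55.2, 38.2 and 53.3 CPM in deprived 1, 2 and 3 and 51.4, 36.4 and 35.3 CPM in complete 1, 2 and 3. Deprived 2 lay beside complete 2 and complete 3, and complete 1 beside deprived 1 and deprived 3, the order of PHGDH. Its means were 48.9 ± 9.36 CPM for deprived and 41.01 ± 9.01 CPM for complete libraries (SD, n = 3 each), and its log2 fold change was 0.26 ± 0.18 (SE). It was 0.16 without deprived 1 or without complete 3, 0.41 without deprived 2 and 0.45 without complete 1. CHKB, the muscle-associated isoform, ranged over 7.803 to 10.1 CPM, and CHKA held 77.8% to 85.97% of the choline kinase counts. CHKB overlaps a readthrough transcript with CPT1B, and its reads are uncertain, since the strand setting is not given in the sources used here.

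PCYT2, the rate-limiting enzyme of phosphatidylethanolamine synthesis from ethanolamine, stood at 20.6, 12.9 and 18.96 CPM in deprived 1, 2 and 3 and 18.1, 14.4 and 14.4 CPM in complete 1, 2 and 3. Its highest library exceeded its lowest by a ratio of 1.596, and the same 3 libraries were high as for CHKA. The means were 17.5 ± 4.05 CPM for deprived and 15.6 ± 2.17 CPM for complete libraries (SD, n = 3 each), with a log2 fold change of 0.16 ± 0.20 (SE). It was 0.027, 0.34 or 0.10 without deprived 1, 2 or 3 and 0.28, 0.10 or 0.11 without complete 1, 2 or 3. PEMT, which methylates phosphatidylethanolamine to phosphatidylcholine and is best known from liver, stood at 15.2, 10.5 and 13.7 CPM in the deprived libraries and 14.5, 15.1 and 12.7 CPM in the complete libraries. Only deprived 2 was apart, and low. The PEMT means were 13.1 ± 2.39 CPM for deprived and 14.1 ± 1.204 CPM for complete libraries (SD, n = 3 each), with a log2 fold change of -0.10 ± 0.18 (SE), which turned to 0.034 without deprived 2.

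SERINC proteins are membrane proteins named for a proposed role in carrying serine into lipids, and later work on SERINC3 and SERINC5 concerned their restriction of retroviruses. SERINC3 stood at 159.6, 143 and 189 CPM in deprived 1, 2 and 3 and 186, 143 and 158 CPM in complete 1, 2 and 3, with deprived 3 and complete 1 high and deprived 2 and complete 2 equally low; its start, printed above, holds the match TGATGTAA. SERINC1 ranged over 109 to 124 CPM and SERINC5 over 24.05 to 33.4 CPM, the latter highest in complete 1 and lowest in complete 2. SERINC2 did not pass the low count filter, with 12, 4 and 12 counts in the deprived and 1, 9 and 5 counts in the complete libraries. Of the family's counts, SERINC3 held 52.4 ± 3.02% (SD, n = 3) in deprived and 52.7 ± 1.79% (SD, n = 3) in complete medium. SERINC1 held 37.7 ± 2.25% (SD, n = 3) in deprived and 37.9 ± 2.204% (SD, n = 3) in complete medium.

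The spread of a member over libraries can be set against counting error by the dispersion index, the Pearson chi-square of its 6 counts divided by its 5 degrees of freedom, which is near 1 when only counting error acts. Its median was 2.80 over the members and 2.79 over all genes tested. It was under 2 in 10 of 33 members and in 4617 of all 13068 genes tested. Those members included ORMDL2 at 0.755, ACER3 at 0.556, SGMS2 at 0.837, CHKB at 0.612 and SPTSSA at 1.09. SPTLC1, whose labels did not overlap, was also among them at 1.93, as was PEMT at 1.62, low only in deprived 2. The index was highest for KDSR at 19.97, SERINC3 at 17.2, PTDSS1 at 14.5, CHKA at 13.3 and UGCG at 10.5. By the same measure PHGDH reached 319 and ATF4 524, while PSPH, the last enzyme of serine synthesis, reached 8.78, below KDSR. The index grows with a gene's count, so it does not rank genes by their relative change. On the scale of the highest against the lowest library, PHGDH had a ratio of 3.59, PSPH of 1.71 and the members at most 1.599.

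Deprived 2 and complete 1, which lay with the libraries of the other label for PHGDH and ATF4, were also left out together. The edgeR fit on the remaining 4 libraries called 7 of 34 members, where it called 15.9% of all genes. UGCG, CHKA, SGPL1 and KDSR were higher in the deprived libraries, a direction in which 8.57% of all genes were called. CERS2, DEGS1 and PTDSS1 were lower, a direction with 7.38% of all genes. For CHKA the log2 fold change became 0.60 ± 0.12 (SE), for SGPL1 0.42 ± 0.14, for UGCG 0.30 ± 0.077 and for CERS2 -0.23 ± 0.076. ORMDL3, PTDSS2, PCYT2, PEMT, SPTLC1, SGPP1 and CERK were not called in that fit. Because both libraries were chosen by their values, these calls are no independent test of the medium.

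**Figure D4:**
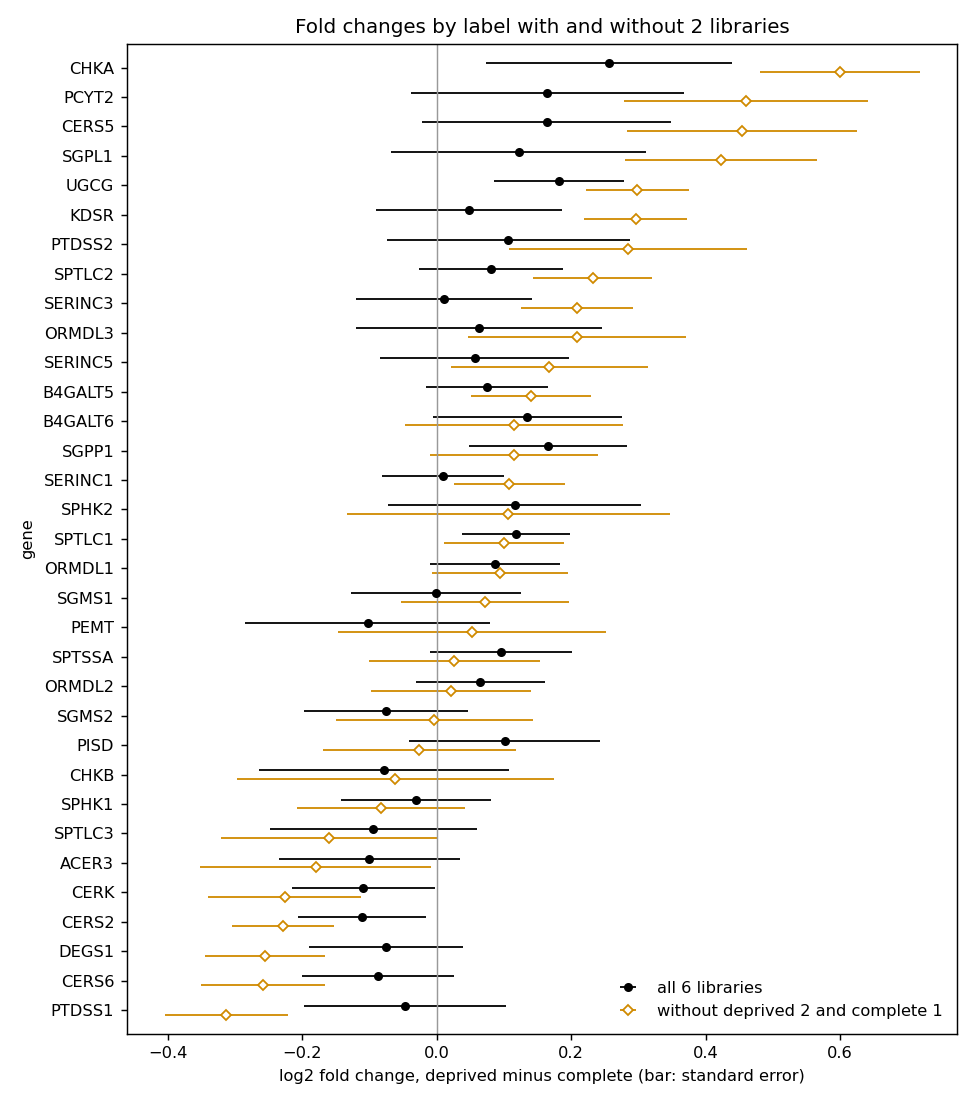
Log2 fold change of deprived against complete medium for each tested member, with its standard error, in the fit of all 6 libraries (black circles) and in the fit without deprived 2 and complete 1 (open diamonds), ordered by the latter. With all libraries the values lie between -0.11 and 0.26, and without those libraries CHKA reaches 0.60.

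Among 72 other genes of sphingolipid and phospholipid metabolism, 57 were tested and 0 passed the threshold in edgeR's test. Of these, 1 had an unadjusted p under 0.05, where 1.89% of all genes tested did. The log2 fold change was above 0 in 40 and below 0 in 17, with a median of 0.074. Over all genes, 51% lay above 0 and the median was 0.0033. The labels did not overlap in 4 of them: GLTP, PCYT1A and ABHD12 were higher and SELENOI was lower in the deprived libraries, against 6.97% of all genes in either direction. Deprived 1, deprived 3 and complete 1 held the 3 highest values in 18 and the 3 lowest in 5. In the 20 tested genes of sphingolipid breakdown, some of which act in lysosomes and others elsewhere, they held the 3 highest values of 11 and the 3 lowest of 0, against 18.3% and 17.7% of all genes.

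ASAH1, the acid ceramidase, stood at 65.97, 35.5 and 55.5 CPM in deprived 1, 2 and 3 and 59.5, 34.8 and 34.1 CPM in complete 1, 2 and 3. Those values placed deprived 2 with complete 2 and complete 3, and the log2 fold change by label was 0.29 ± 0.26 (SE). It was 0.087 or 0.51 without deprived 1 or 2, and 0.60, 0.16 or 0.15 without complete 1, 2 or 3. CERT1, listed under its older symbol COL4A3BP, carries ceramide from the endoplasmic reticulum to the Golgi and stood at 111, 65.4 and 107 CPM in the deprived libraries and 116, 75.05 and 73.2 CPM in the complete libraries. Complete 1 was its highest library and deprived 2 its lowest, and its log2 fold change of 0.10 ± 0.23 (SE) turned sign without deprived 1, complete 2 or complete 3. GLA removes galactose from glycosphingolipids. It stood at 26.2, 17.6 and 23.9 CPM in the deprived libraries and 18.3, 13.8 and 12.9 CPM in the complete libraries. Deprived 1, deprived 3 and complete 1 held its 3 highest values, and the labels overlapped. Its unadjusted p was 0.0155 in edgeR's test, and its log2 fold change was 0.59 ± 0.20 (SE). That fold change was 0.47 without deprived 1 and 0.75 without complete 1. NEU1, a sialidase, and HEXA, a subunit of the hexosaminidase that trims gangliosides, differed between labels by 0.32 ± 0.19 and 0.17 ± 0.23 on the log2 scale (SE). NEU1 was 0.14 without deprived 1 and 0.49 without deprived 2; HEXA was 0.30 without deprived 2, 0.042 without deprived 3, and 0.48, 0.045 or 0.025 without complete 1, 2 or 3. NEU1 stands on 8 rows of the table, of which 1 was tested. PSAP, the precursor of the saposins that present these lipids to the hydrolases, stood at 797, 559 and 865 CPM in the deprived libraries and 863, 529 and 532 CPM in the complete libraries, the same order again. S1PR3, a receptor for sphingosine phosphate, took the reverse order at 10.9, 16.7 and 11.9 CPM in the deprived libraries and 11.6, 19.6 and 19.9 CPM in the complete libraries, with a log2 fold change of -0.37 ± 0.25 (SE), and of -0.59 without deprived 2 and -0.58 without complete 1.

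PCYT1A and ABHD12 did not follow the libraries that were high for PHGDH, and CHPT1 followed them only in part. PCYT1A, the rate-limiting enzyme of phosphatidylcholine synthesis, stood at 40.6, 38.02 and 37.5 CPM in deprived 1, 2 and 3 and 36.1, 34.4 and 28.2 CPM in complete 1, 2 and 3. The labels did not overlap, and the log2 fold change was 0.24 ± 0.12 (SE), and 0.14 without complete 3. CHPT1, a transferase of the last step of that route, stood at 42.9, 36.7 and 45.7 CPM in the deprived libraries and 36.7, 32.8 and 36.9 CPM in the complete libraries, with a log2 fold change of 0.24 ± 0.12 (SE). Deprived 1 and deprived 3 were its highest libraries, as they were for PHGDH, but complete 1 was level with deprived 2 and complete 3. ABHD12, a lipase that removes lysophosphatidylserine, stood at 39.5, 35.2 and 35.2 CPM in the deprived libraries and 31.3, 33.7 and 28.6 CPM in the complete libraries, with a log2 fold change of 0.23 ± 0.11 (SE). GALC, the galactosylceramidase, lay at 1.002 to 3.04 CPM and had a log2 fold change of -0.65 ± 0.39 (SE), resting on 83 counts in all, and -0.41 without deprived 1. The edgeR adjusted p was 0.999 for each of these genes. None of CERS3, DEGS2, FA2H, ACER1, GBA3, S1PR4, MFSD2B and ETNPPL had a count in any library.

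**Figure D5:**
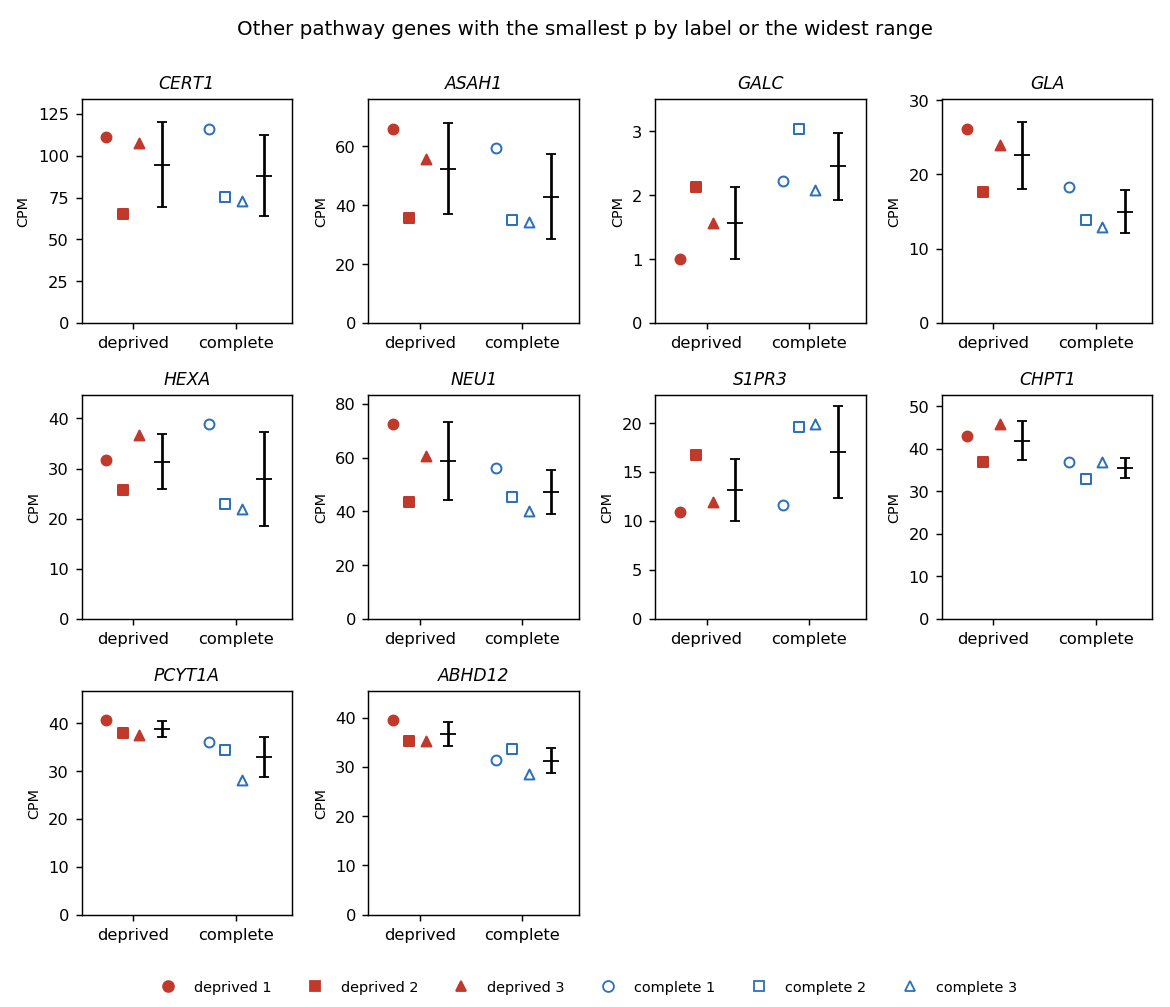
CPM of the 10 other pathway genes with the smallest p by label or the widest range over libraries, with the symbols given below the panels and black bars for the mean and SD of each label (n = 3); axes start at 0. In CERT1, ASAH1 and HEXA deprived 2 lies low and complete 1 high, in S1PR3 the reverse, and in PCYT1A and ABHD12 all deprived values lie above all complete values.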

How the data were processed

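RNA of U87MG cells was measured after 24 h, in 3 libraries for each medium. The authors deposited raw read counts per gene symbol from a 3′ end kit, per the labels' protocols, with no normalization. Bowtie2 is named, without a version, in the submitters' processing notes; strand use, multiple alignments, annotation, build and counting program are not given there or elsewhere in the sources used here. Group and replicate number came from sample titles, and 0 count columns stayed unmatched. Rows without a gene name numbered 0.

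Counts were filtered with filterByExpr at a minimum count of 10, scaled by TMM and tested for the medium with the quasi-likelihood test of edgeR 4.0.16 in R 4.3.3, with Benjamini-Hochberg adjusted p under 0.05 as threshold, over all 13068 genes. Standard errors are from the fitted weights and the posterior quasi-dispersion. Alternatives used DESeq2 1.42.0, limma 3.58.1, other scalings and filters, rows of a shared symbol summed, the replicate number as a block, and each library left out. The procedure was tested on simulated data with the median dispersion of the tested genes. It called 32.8% of 1.5-fold, 76.9% of 2-fold and 100% of 4-fold changes, with 7 false calls among 145. The simulation held no libraries that stood apart within a label, as deprived 2 and complete 1 did. Python 3.11.15, pandas 2.3.3 and Matplotlib 3.10.9 made tables and figures.

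The members and lists were chosen with earlier results of these data known, as was the removal of deprived 2 and complete 1 together. Full results are given for the 6 members with the smallest p and the 6 with the widest range at a mean of at least 10 CPM, and by the same rule for other pathway genes. GLTP, SELENOI, PSAP and the genes listed at 0 were named after their values were seen. Older symbols were matched by a list written by hand.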

Additional observations from a re-analysis of the deposited data

How the results depend on the processing

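The number of genes called by label was 0 under every setting with all libraries or 1 left out, and 2096 without deprived 2 and complete 1, libraries picked by their values. The number of members called was likewise 0 and became 7, of which 4 were higher and 3 lower. Members with a log2 fold change above 0 numbered 21, and 17 to 24 with 1 library left out. With 1 library left out, unadjusted p under 0.05 was found in edgeR for SGPP1 without deprived 1, for CHKA without deprived 2, and for CHKA and UGCG without complete 1. Over all genes, 130 of 13258, 1037 of 13296 and 1141 of 13282 were under it in these fits. Among the genes with full results, the sign of a log2 fold change turned in these ranges with 1 library left out: -0.12 to 0.22 for ORMDL3, -0.014 to 0.28 for SGPL1, -0.22 to 0.034 for PEMT, -0.00091 to 0.25 for PTDSS2 and -0.031 to 0.35 for CERT1. It also turned in SPTLC3, KDSR, SGMS1, SGMS2, SPHK1, PTDSS1, CHKB, SERINC1, SERINC3 and SERINC5, members without full results. For KDSR the range was -0.034 to 0.20, and for PTDSS1 -0.19 to 0.062. PEMT was 0.053 without both libraries. The cause was not tested. No other scaling, filter, tool or summing of rows turned the sign for a gene with full results. The stricter filter left GALC untested.

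No label ties equal replicate numbers together. For that reason the numbers were not taken as pairs. Across genes, the deviations from the label mean had a correlation of 0.38 for number 1, 0.38 for number 2 and -0.28 for number 3. Among unlike numbers it was 0.42 for deprived 2 with complete 3 and 0.41 for deprived 3 with complete 1. It was -0.60 for deprived 2 with complete 1, and -0.28 to -0.23 for the rest. Because deprived 2 and complete 1 stood apart within their labels, these correlations cannot show whether the numbers mark pairs. A fit with the replicate block called 0 genes and 0 members, and 22 members had a log2 fold change above 0. Depth limits SPTSSB, ACER2, CERS1, CERS4 and SERINC2, whose counts were too low to test.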

Other observations

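In the deposited table the columns of deprived 1, complete 1 and deprived 3 stand in places 1, 2 and 3, and those of deprived 2, complete 2 and complete 3 in places 4, 5 and 6. The first 3 columns are thus the libraries that held the 3 highest values of PHGDH, ATF4, CHKA, KDSR and CERS5. What the order of columns records is not given in the sources used here, and it was not used to assign any library to a medium. Pairs of libraries of the same label differed by a chi-square per gene of 3.09 for deprived 1 with deprived 3 and 2.80 for complete 2 with complete 3, and of 12.4 to 15.5 for the pairs that include deprived 2 or complete 1.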
